A study of Mus musculus with 2 samples.

Results

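The 6 genes described here govern the shape and lipid make-up of the muscle fibre's inner membranes: Mtm1, Mtmr2, Mtmr14, Bin1, Dnm2 and Speg. They were chosen by name, from the symbols in the deposited table, and all 6 members were found among 44787 gene rows, each in 1 row. RNA came from the hindlimb muscle of mice on the C57BL/6 background, 30 days after birth. It was sequenced from the wild type (WT) and from SRSF1-MKO, with 1 library each. SRSF1-MKO is the genotype in which the splicing factor gene Srsf1 is targeted, going by its name. The sources used here do not spell out MKO, and do not give the promoter or driver behind it, the sex or the number of animals per library. The question taken from the labels is how the transcript levels of these genes differ between both genotypes.

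Skeletal muscle carries each action potential into the fibre through transverse tubules, which are infoldings of the surface membrane that meet the sarcoplasmic reticulum at the triads. Myotubularins are phosphatases that remove the phosphate at position 3 of phosphoinositide lipids, and the membranes that tubules form from are marked and turned over by such lipids. Amphiphysin 2, the product of Bin1, bends membrane into tubules; dynamin 2, the product of Dnm2, is a GTPase that constricts and cuts them; and the kinase encoded by Speg sits at the triad and binds the MTM1 protein. In people, MTM1, BIN1, DNM2 and SPEG are genes of centronuclear myopathy, in which fibre nuclei lie centrally and triads are disordered, and MTMR14 variants have been described in the same disease. MTMR2 is a gene of a demyelinating neuropathy and a close relative of MTM1.

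The catalytic loop of the phosphatases is the part that Mtm1, Mtmr2 and Mtmr14 have in common, so its codons are shown here from the GENCODE M21 transcripts (GRCm38). Capitals mark the 7 codons from the catalytic cysteine to the arginine, with 4 codons of flank in lower case on each side; in the longest open reading frame of Mtm1 the loop takes codons 375 to 381.
Mtm1: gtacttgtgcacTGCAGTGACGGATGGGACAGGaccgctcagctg
Mtmr2: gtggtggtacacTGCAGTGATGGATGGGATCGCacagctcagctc
Mtmr14: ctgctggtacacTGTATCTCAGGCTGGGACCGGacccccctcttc
Of the 21 bases in capitals, 17 were the same in Mtm1 and Mtmr2, 13 in Mtm1 and Mtmr14, and 12 in Mtmr2 and Mtmr14. The longest exact run shared by the open reading frames of Mtm1 and Mtmr2 was 20 bases, and that of Mtm1 and Mtmr14 was 10 bases. Dnm2 shared runs of up to 34 bases with Dnm1 and 35 bases with Dnm3, its relatives of nervous tissue, which were at 2.15 and 0.356 FPKM in WT.

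Levels are given in FPKM, the authors' value of reads per kilobase of transcript and 1000000 mapped reads, which allows levels to be compared between genes. The values kept the step that 1 read makes, so that library totals of 23146640 reads for WT and 21350284 for SRSF1-MKO and the reads behind each of the 6 genes could be worked out. Each group holds 1 library, so there is no replicate check and no test between genotypes. The 95% intervals below are exact (Poisson for a level, Clopper-Pearson binomial for a ratio between libraries) and cover counting error only. Srsf1 itself stood at 13.7 FPKM in the WT library against 6.70 in the SRSF1-MKO library, 0.489 times as high (0.450 to 0.533). The reads behind Srsf1 came out as 1762 in WT and 795.5, not a whole number, in SRSF1-MKO. The implied length of 5560 bases equals no GENCODE transcript length, so this interval is less sure. Each sample carries a pair of descriptions that contradict each other about its column, so each column was given to the genotype that its own name carries, and every direction below rests on that.

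Dnm2 and Mtm1 had the largest ratios of the 6 genes, Bin1 and Mtmr2 were higher by less, Mtmr14 was nearly level, and Speg was lower in the SRSF1-MKO library. Across the 10476 genes that averaged at least 1 FPKM (called measured below) the median log2 ratio was 0.21, and across the 4989 genes that averaged at least 5 FPKM it was 0.32, so a general shift towards higher FPKM stands behind every ratio. Differences are therefore also given with the second median, that of genes at 5 FPKM or more, set to 0 (written below as the median set to 0). On the log2(FPKM + 1) scale, that is log2((SRSF1-MKO FPKM + 1)/(WT FPKM + 1)), which understates differences of low genes, 3 of the 6 genes (Dnm2, Mtm1 and Bin1) were at least 1.5-fold higher, a size reached by 23.7% of all measured genes. In the other direction 0 of 6 were at least 1.5-fold lower, against 8.13% of measured genes, and 0 of 6 passed 2-fold, which 9.44% of genes passed upward and 3.12% downward. With the median set to 0, 0 of 6 were higher (11.4% of genes) and 1, Speg, was lower (18.1% of genes). The choice of median decides these counts: with the median of all measured genes set to 0 instead, an alternative chosen after seeing the data, 1 of 6 was higher (Dnm2 at 0.68, with 14.6% of genes) and 0 were lower (Speg at -0.52, with 13.7% of genes). The median log2 ratio of the 6 genes was 0.58.

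**Figure D1:**
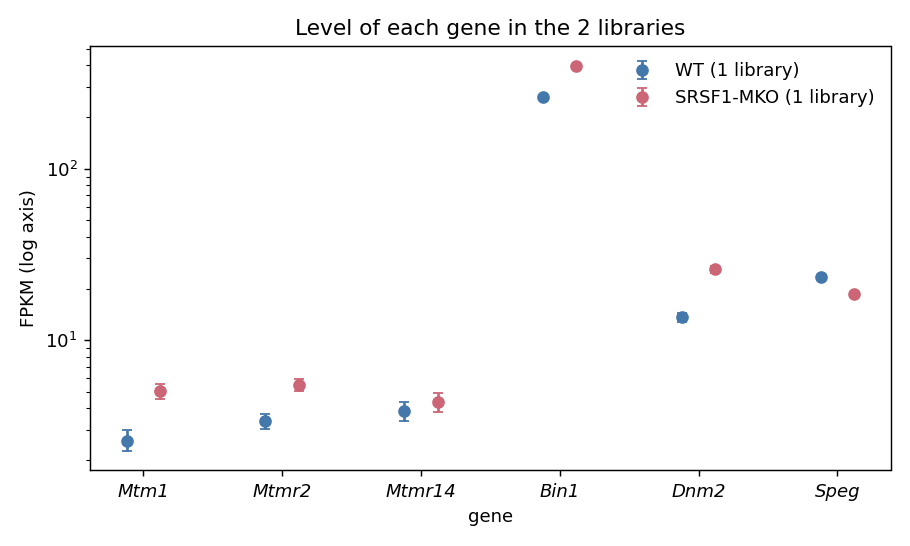
Level of each gene in FPKM (log axis) in the WT library and the SRSF1-MKO library, 1 point per library, with exact Poisson 95% intervals for counting error. Bin1 stands at 263 and 396 FPKM, the myotubularin genes lie between 2.60 and 5.47 FPKM, and Dnm2 and Speg change places.

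Mtm1 encodes myotubularin, the phosphatase whose loss causes the X-linked form of centronuclear myopathy, and lies on chromosome X (71210767 to 71315691, plus strand). It was at 2.60 FPKM in WT (2.26 to 2.98, from 210 reads) and at 5.04 FPKM in SRSF1-MKO (4.54 to 5.57, from 375 reads). It was the lowest of the 6 genes in WT, and the counting intervals of both libraries did not overlap. The ratio was 1.94 with an interval of 1.63 to 2.30, and the log2(FPKM + 1) difference was 0.75, or 0.42 with the median set to 0. Of all measured genes, 83.6% had a smaller log2 ratio. The gene length implied by the reads, 3488 bases, equals that of an annotated Mtm1 transcript.

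Mtmr2 encodes the myotubularin-related phosphatase that is most like myotubularin, on chromosome 9 (13748410 to 13806481, plus strand). It was at 3.37 FPKM in WT (3.04 to 3.73) and at 5.47 FPKM in SRSF1-MKO (5.03 to 5.93). The SRSF1-MKO level was the higher, and the intervals did not overlap. Its ratio was 1.62 (1.42 to 1.85), while on the log2(FPKM + 1) scale the difference of 0.57 stayed just under the 1.5-fold limit, and it was 0.24 with the median set to 0. The reads behind it came out as 386.25 in WT and 578 in SRSF1-MKO. The WT figure is not a whole number, which holds if the implied length is 4949 bases, close to the 4913 bases of its merged exons; the sources used here do not say how the authors counted reads with several alignments.

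Mtmr14, the third phosphatase gene (chromosome 6, 113237843 to 113281392, plus strand), encodes a phosphoinositide phosphatase of striated muscle more distant from the other two. It was at 3.84 FPKM in WT (3.37 to 4.36, from 238 reads) and at 4.36 FPKM in SRSF1-MKO (3.83 to 4.93, from 249 reads). The counting intervals overlapped widely. The ratio of 1.13 had an interval of 0.946 to 1.36, which includes 1, so a difference was not detectable at this depth. Its log2 difference was 0.15 as deposited and -0.18 with the median set to 0, so its sign depends on the scaling.

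Bin1 encodes the membrane-bending protein of the forming tubule, and its gene lies on chromosome 18 (32377230 to 32435737, plus strand). It was by far the most abundant of the 6, at 263 FPKM in WT (259 to 267) and 396 FPKM in SRSF1-MKO (390.4 to 401), which placed it 105th of all genes by FPKM in both libraries. The reads were 15562 and 21583, so counting error is small. The lengths that the reads imply for Bin1 (2555 bases) and, below, for Dnm2 (3566 bases) equal no GENCODE transcript length, whose longest are 2682 and 3510 bases, so these read counts are less sure than those of Mtm1 and Mtmr14, whose lengths match one. The ratio was 1.504 (1.47 to 1.54). The log2 difference of 0.59 was just past the 1.5-fold limit, and it was 0.27 with the median set to 0. Skeletal muscle is known to splice a muscle-specific exon into Bin1 that binds phosphoinositides; the table holds 1 sum per gene, and isoforms of Bin1 were not analysed here. A noncoding gene on the opposite strand, A830052D11Rik, shares 256 exon bases with Bin1 and was at 1.87 and 2.40 FPKM.

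Dnm2 encodes the membrane-cutting GTPase dynamin 2, on chromosome 9 (21424908 to 21507759, plus strand). It was at 13.6 FPKM in WT (12.8 to 14.4, from 1120 reads) and at 25.9 FPKM in SRSF1-MKO (24.7 to 27.0, from 1969 reads). The intervals lie far apart, and its rank among all genes went from 2194 to 1542. The ratio was 1.91 (1.77 to 2.05) and the log2 difference 0.88, the highest of the 6 genes on that scale, or 0.56 with the median set to 0. Of all measured genes, 88.0% had a smaller log2 ratio. Tmed1, a coding gene on the opposite strand that shares 207 exon bases with Dnm2, was at 5.55 and 7.12 FPKM, and the sources used here do not say whether the libraries kept the strand.

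Speg encodes a large kinase of striated muscle with a pair of kinase domains, on chromosome 1 (75375297 to 75432320, plus strand). It was at 23.4 FPKM in WT (22.8 to 24.0) and at 18.6 FPKM in SRSF1-MKO (18.03 to 19.1), from 5838 and 4283 reads. It was the only one of the 6 genes with the lower value in SRSF1-MKO, with a ratio of 0.795 (0.764 to 0.828). The log2 difference was -0.32 as deposited and -0.64 with the median set to 0. Its implied length of 10795 bases is near the 10801 bases of the long annotated transcript, so the value rests on the long form's length; short forms from the same gene are not separated.

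**Figure D2:**
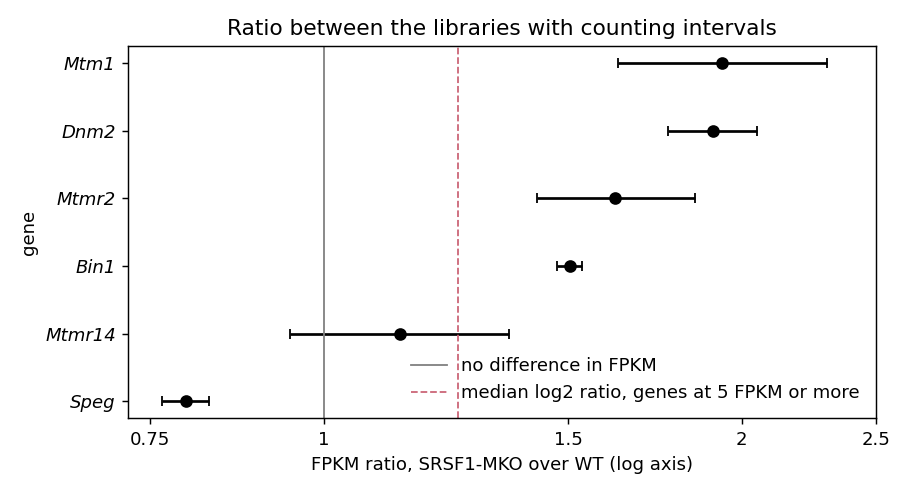
FPKM ratio of SRSF1-MKO over WT for each gene (log axis), with exact binomial 95% counting intervals; the grey line marks equal FPKM and the dashed line the median log2 ratio of genes that averaged at least 5 FPKM. Dnm2, Mtm1, Mtmr2 and Bin1 lie above both lines, the interval of Mtmr14 spans both, and Speg, at 0.795, lies below both.

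In order of level, WT had Bin1, Speg, Dnm2, Mtmr14, Mtmr2 and Mtm1 from highest to lowest. In SRSF1-MKO the order was Bin1, Dnm2, Speg, Mtmr2, Mtm1 and Mtmr14. Neighbours whose counting intervals overlapped were Mtmr14 and Mtmr2 in WT, and Mtmr2 and Mtm1 as well as Mtm1 and Mtmr14 in SRSF1-MKO; all other neighbours were apart by more than counting error.

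Ratios of gene pairs within a library do not depend on how the columns are scaled against each other. Speg was at 1.72 times the level of Dnm2 in WT (1.61 to 1.84) and at 0.719 times in SRSF1-MKO (0.681 to 0.758), so the pair changed places. The Speg to Dnm2 ratio in SRSF1-MKO was 0.417 of that in WT, with a large-sample 95% counting interval of 0.384 to 0.454. The ratio of the tubule-forming to the tubule-cutting gene, Bin1 over Dnm2, was 19.4 in WT (18.3 to 20.6) and 15.3 in SRSF1-MKO (14.6 to 16.03). Bin1 over Speg went the other way, at 11.3 and 21.3.

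Dnm2 over Mtm1 was 5.22 in WT and 5.14 in SRSF1-MKO, and the ratio between libraries, 0.985 (0.819 to 1.18), included 1. Mtmr2 over Mtm1 was 1.30 and 1.09, and this ratio between libraries also included 1, at 0.838 (0.678 to 1.04). Bin1 over Mtm1 was 101 in WT and 78.6 in SRSF1-MKO, with a ratio between libraries of 0.777 (0.655 to 0.921). Speg over Mtm1 was 8.98 (7.83 to 10.4) in WT and 3.69 (3.32 to 4.11) in SRSF1-MKO. Mtmr14 over Mtm1 was 1.48 (1.22 to 1.79) in WT and 0.865 (0.734 to 1.02) in SRSF1-MKO.

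**Figure D3:**
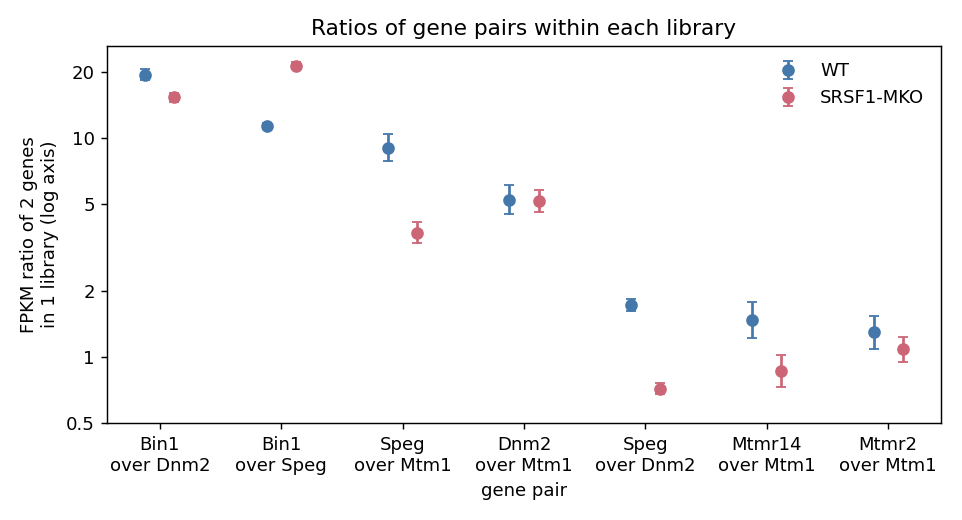
FPKM ratio of 7 gene pairs within the WT library and within the SRSF1-MKO library (log axis), with exact binomial 95% counting intervals. Dnm2 over Mtm1 stands at 5.22 and 5.14, while Speg over Dnm2 goes from 1.72 to 0.719 and Bin1 over Speg from 11.3 to 21.3.

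The promoters of Dnm2 and Speg are shown because these genes had the highest and the lowest log2 ratio of the 6. The RefSeq windows (GRCm38.p6) run from 250 bases before to 50 after a gene start and are on the plus strand; both start sites lie within 5 bases of the start in the deposited table. For Mtm1 the deposited start lies 44669 bases or more from every listed start, so no window is shown for it. Capitals mark the CCAAT box (CCAAT) on either strand for Dnm2, and the MEF2 element on either strand for Speg.
Dnm2, chr9:21424658-21424957: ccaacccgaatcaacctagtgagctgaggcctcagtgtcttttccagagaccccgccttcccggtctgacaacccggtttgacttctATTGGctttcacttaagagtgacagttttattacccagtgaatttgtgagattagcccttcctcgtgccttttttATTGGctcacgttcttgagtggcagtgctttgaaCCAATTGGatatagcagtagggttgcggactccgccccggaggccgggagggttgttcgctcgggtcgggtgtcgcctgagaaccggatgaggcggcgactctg
Speg, chr1:75375047-75375346: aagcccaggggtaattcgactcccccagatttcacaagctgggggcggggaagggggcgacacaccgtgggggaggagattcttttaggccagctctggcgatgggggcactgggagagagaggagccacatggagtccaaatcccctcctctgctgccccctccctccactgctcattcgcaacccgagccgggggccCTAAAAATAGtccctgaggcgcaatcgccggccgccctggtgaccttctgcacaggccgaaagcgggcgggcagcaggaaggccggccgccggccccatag
The Dnm2 window held 4 matches to CCAAT, of which a pair on opposite strands overlap each other and an E-box (CANNTG), and 1 GC box (GGGCGG). The Speg window shown held 1 match to the MEF2 element, the site of a family of muscle transcription factors, 3 GC boxes and 1 E-box. Speg has other listed windows, at starts 6817 bases or more from the deposited start, and none of them held the MEF2 element. Neither window shown held a TATA box (TATAAA). Among 32851 promoter windows of this length, searched on both strands, 37.4% held CCAAT, 35.7% a GC box, 72.3% an E-box, 13.6% a TATA box and 3.19% the MEF2 element. These matches describe letters in the windows and not binding.

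Of 11 other myotubularin genes, 8 were measured. On the log2(FPKM + 1) scale, which shrinks differences of genes this low, 0 of these 8 passed 1.5-fold in either direction. Among all measured genes 23.7% passed upward and 8.13% downward. The median log2 ratio of the 8 was 0.10, against 0.21 over all measured genes. With a pseudocount of 0.1, 1 gene passed upward. With the median set to 0, 1 passed downward, against 18.1% of all measured genes. By the plain FPKM ratio, Sbf2, Mtmr1 and Mtmr10 were past 1.5-fold. Mtmr1, the third member of the subfamily of Mtm1 and Mtmr2 and the neighbour of Mtm1 on chromosome X, stood at 2.23 FPKM in WT and at 3.35 in the other library, 1.502 times as high. Sbf2, a catalytically dead relative that binds MTMR2, was at 1.79 and 2.99 FPKM, a ratio of 1.67. Mtmr10, another dead relative, was the lowest by ratio, at 2.21 and 1.47 FPKM, 1.505-fold lower. Mtmr6 was at 10.5 and 11.7 FPKM, which made it the most abundant myotubularin gene in both libraries and higher than Mtm1 itself. Mtmr3 was at 7.27 and 7.93 FPKM, Sbf1 at 4.87 and 4.89, Mtmr9 at 1.74 and 1.93, and Mtmr4 at 1.16 and 1.06. Of these 8 genes, Sbf2 alone was above 0.5 on the log2(FPKM + 1) scale, at 0.52.

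Partners and candidate partners of the phosphatases were mixed. Of 6 partner genes 5 were measured. Of these, 1 passed 1.5-fold upward and 0 downward, against 23.7% and 8.13% of all measured genes. Their median was 0.17 on the log2 scale, close to the 0.21 over all measured genes. The higher one was Des, the intermediate filament desmin that binds myotubularin, at 1532 and 4385 FPKM. Mtmr12, the catalytically dead adaptor of myotubularin, was under the limit of 1 FPKM, at 0.892 and 0.845 FPKM. Inppl1, a phosphoinositide phosphatase, was at 14.7 and 16.6 FPKM, and Ubqln2, a ubiquilin, at 2.96 and 2.11 FPKM.

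Among kinases and phosphatases that make or use the same lipids, 3 of 21 measured genes (14.3%) passed 1.5-fold upward, a smaller share than the 23.7% of all measured genes, and 0 downward (median log2 ratio 0.09). With the median set to 0, 2 passed upward and 1 downward, against 11.4% and 18.1% of all measured genes, and the list's median was -0.23. Vac14, the scaffold of the kinase complex that adds a phosphate to the lipid myotubularin acts on, went from 3.29 FPKM in WT to 16.8 in the other library, a ratio of 5.09 with an approximate counting interval of 4.58 to 5.67. Its partner Fig4 was at 2.21 and 2.74 FPKM, a ratio of 1.24 (1.002 to 1.53). The kinase Pikfyve, under the limit of 1 FPKM, was at 0.561 and 0.772 FPKM, a ratio of 1.38 (1.0998 to 1.72). On the log2(FPKM + 1) scale with the median set to 0, Vac14 was at 1.73, Fig4 at -0.10 and Pikfyve at -0.14. Synj2, synaptojanin 2, was at 2.23 and 12.1 FPKM, and Pip4k2b at 10.2 and 17.2 FPKM. The kinase that makes phosphatidylinositol 3-phosphate, Pik3c3, was at 4.11 and 5.56 FPKM, and its regulatory subunit Pik3r4 at 2.05 and 1.99 FPKM.

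Of 19 genes that bind or act with phosphatidylinositol 3-phosphate, the substrate lipid of myotubularins, 5 (26.3%) passed 1.5-fold upward, a share near the 23.7% of all measured genes, and 0 downward (median log2 ratio 0.10). Wipi1, which binds the lipid on forming autophagosomes, was at 19.0 and 78.9 FPKM, and its relative Wipi2 at 3.19 and 5.65 FPKM. Rab5a, a GTPase of early endosomes, was at 14.7 and 26.4 FPKM, Wdfy1 at 2.45 and 5.27 FPKM, and the endosomal sorting protein Hgs at 4.62 and 7.61 FPKM. With the median set to 0, 1 gene of this list was higher and 1 was lower, against 11.4% and 18.1% of all measured genes.

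Genes of membrane bending and cutting beside Bin1 and Dnm2 went both ways. Of 22 measured genes, 4 passed 1.5-fold upward and 3 downward, and the median log2 ratio was 0.06. The higher ones were Ehd4, a membrane-shaping ATPase, at 11.9 and 42.7 FPKM; Pacsin2, a BAR-domain protein that binds dynamin, at 9.33 and 22.4 FPKM; Sh3glb1, an endophilin, at 32.4 and 56.5 FPKM; and Cltb, a clathrin light chain, at 34.2 and 58.0 FPKM. The lower ones were Ehd2, which sits at the neck of caveolae, at 12.1 and 6.45 FPKM; Itsn1, a scaffold that binds dynamin, at 6.98 and 3.60 FPKM; and Arhgap10 at 26.2 and 17.0 FPKM. Pacsin3, a paralogue of Pacsin2 found in muscle, was at 54.3 and 73.03 FPKM, within the 1.5-fold limits. Upward, 18.2% of the list passed, against 23.7% of all measured genes, and downward 13.6%, against 8.13%. With the median set to 0, 2 passed upward and 6 downward, against 11.4% and 18.1% of all measured genes.

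The list of tubule and triad genes, which also holds sarcomere genes such as Myom1 and Tcap, had more genes lower than higher. Of 21 measured genes, 9 (42.9%) passed 1.5-fold downward, against 8.13% of all measured genes, and their median log2 ratio was -0.53, against 0.21 over all measured genes. Muscle fibre markers, a list that also holds Ryr1 and Cacna1s, had 5 of 8 (62.5%) lower and 2 (25.0%) higher. The median log2 ratio of these markers was -1.17, which rests in part on Ryr1 and Cacna1s. The lower markers from outside the tubule and triad list were Myh4, Ckm and Tnnt3, at log2 ratios of -2.00, -1.44 and -0.94. Lower levels were thus not particular to tubule and triad genes. Upward, 5 (23.8%) of the tubule and triad genes passed, close to the 23.7% of all measured genes. The 4 with the largest differences were Ryr1, the calcium release channel, at 280 and 59.1 FPKM; Cav3, the caveolin of tubules and surface membrane, at 22.8 and 99.3 FPKM; Jph2, which ties the tubule to the reticulum, at 143 and 46.7 FPKM; and Cacng1, a subunit of the tubule calcium channel, at 76.4 and 231 FPKM. Jph2 and Ryr1 are also proteins that the Speg kinase acts on or binds. The other lower genes were the channel subunits Cacna1s (131 and 48.9 FPKM), Cacnb1 (48.3 and 22.4 FPKM) and Cacna2d1 (63.5 and 31.98 FPKM), the coupling adaptor Stac3 (194 and 83.9 FPKM), the calcium pump Atp2a1 (4229 and 1806 FPKM), the calcium buffer Casq1 (3250 and 1466 FPKM) and the M-band protein Myom1 (328 and 215 FPKM). The other higher genes were Tcap, a Z-disc protein, at 802 and 1760 FPKM, Cavin4, a caveolar coat protein of muscle, at 104 and 214 FPKM, and Mlip at 8.26 and 14.8 FPKM. Of the relatives and partners of Speg, 5 of 10 measured genes (50.0%) passed 1.5-fold downward, against 8.13% of all measured genes. Upward, 3 (30.0%) passed, against 23.7%. With the median set to 0 these were 5 and 1, against 18.1% and 11.4% of all measured genes. The median log2 ratio was -0.37 as deposited. Of the 5 lower genes, Ryr1, Jph2 and Casq1 were already counted among the tubule and triad genes. The Speg relative Obsl1 was at 15.8 and 7.46 FPKM. Trio and Mylk were within the limits, and the higher genes were Des, Kalrn (0.813 and 2.29 FPKM) and the slow-muscle calcium pump Atp2a2 (7.83 and 13.5 FPKM).

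Other genes of congenital myopathies with central nuclei or thin-filament defects had 4 of 13 measured members (30.8%) past 1.5-fold upward and 2 (15.4%) downward, against 23.7% and 8.13% of all measured genes, and a median log2 ratio of 0.28. With the median set to 0, 2 passed upward and 4 downward, with a median of -0.05. The shares of all measured genes turned round in the same way, to 11.4% upward and 18.1% downward. The higher ones were Des, Cfl2 (a muscle cofilin, 48.0 and 116 FPKM), Klhl40 (26.9 and 47.4 FPKM) and Tnpo3 (9.66 and 15.4 FPKM). The lower ones were Ryr1 and Kbtbd13 (2.37 and 0.962 FPKM). Ttn, also a gene of centronuclear myopathy, was at 180 and 166 FPKM, Hacd1, whose loss causes a centronuclear myopathy in dogs, at 70.5 and 49.4 FPKM, and Ccdc78 was listed at 0 in both libraries.

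**Figure D4:**
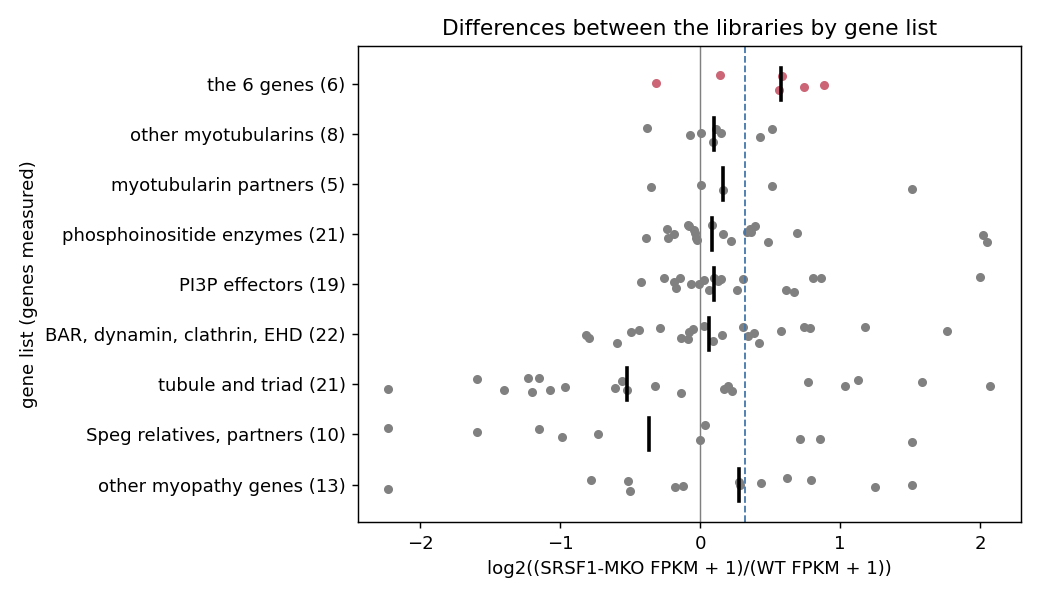
Log2((SRSF1-MKO FPKM + 1)/(WT FPKM + 1)) of every measured gene by list, 1 point per gene, with the list's median as a black bar, 0 as a grey line and the median of 0.32 over genes that averaged at least 5 FPKM as a dashed line. The 6 genes lie between -0.32 and 0.88, the 8 other myotubularins between -0.38 and 0.52, and the 21 tubule and triad genes between -2.23 and 2.08.

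Most of the 6 genes are also expressed outside muscle fibres, and in whole muscle a change in the number of cells of a type and a change in RNA per cell cannot be told apart. The counts of markers below stand beside 23.7% of all measured genes past 1.5-fold upward and 8.13% downward. Of 8 macrophage markers, 5 (62.5%) passed 1.5-fold upward and 0 downward, with summed levels of 41.0 FPKM (WT) and 100.4 FPKM (SRSF1-MKO). Cd68 had the largest ratio among them, at 0.752 and 7.99 FPKM. Mrc1 alone had the lower value in SRSF1-MKO, at 6.79 and 5.61 FPKM, short of 1.5-fold. Of 3 measured Schwann cell markers, 2 were higher (summed levels of the whole list 34.9 and 71.1 FPKM). Endothelial markers had 2 of 6 lower (69.1 and 46.7 FPKM), and adipocyte markers 4 of 4 lower (38.6 and 15.3 FPKM). Fibro-adipogenic markers had 1 of 6 lower, and of smooth muscle and erythroid markers 0 of 3 each passed 1.5-fold. Of the satellite cell markers 1 of 4 was measured, Cdh15, at a log2 ratio of 0.58. Muscle fibre markers were present at high levels in both libraries, with summed levels of 65442 and 34020 FPKM, 5 of 8 lower and 2 higher. A large part of the difference in the sums lay in 1 gene, Myh4, at 28777 and 7176 FPKM. The higher ones were Mb, at 242 and 2135 FPKM, and Des. No marker stood at 0 in WT, and 1 erythroid marker did in SRSF1-MKO. The part of these cell types in the levels of the 6 genes was not tested.

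Genes whose levels were nearest to those of each gene in both libraries, by distance in the plane of the log2(FPKM + 1) values over 2 libraries, were Rnf114 and Pdpk1 for Mtm1, Sart3 and Ctxn3 for Mtmr2, Dap and Casd1 for Mtmr14, Rpl12 and Fxr1 for Bin1, Anxa7 for Dnm2, and Rbfa and Hbb-bt for Speg. The nearest of all was Anxa7, at 13.6 and 25.8 FPKM, with a distance of 0.0027 from Dnm2. With only 2 libraries such nearness says no more than that the levels are alike.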

How the data were processed

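RNA of 2 hindlimb muscle libraries was measured, 1 per genotype. The authors deposited 1 table of FPKM values, with the unit taken from the name of the table; Bowtie and the build mm10 are named in the submitters' processing notes. The sources used here give no version, annotation or way of counting reads. The columns sum to 462919 FPKM (WT) and 575130 FPKM (SRSF1-MKO). In the table, 1 line had been emptied and is not analysed here.

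Symbols were matched to RefSeq directly (32094 rows) or by Entrez number (1826 rows), and 10867 rows kept their name. The difference between libraries was the log2 of the ratio of FPKM values after a pseudocount of 1 was added to each, and genes that averaged at least 1 FPKM were counted at 1.5-fold. Of 19044 rows above 0 in both libraries, 92.8% had ratios that, divided by a single constant of 1.08, equalled a fraction of integers (denominator up to 3000, tolerance 1e-12 relative), against 0.294% with the constant changed by 1 part in 10000. The commonest WT total over annotated transcript lengths, 23146640 reads (512 of 9600 genes, the next 117), gives a whole number, 21350284, for SRSF1-MKO. Reads of the 6 genes followed from these totals; for list genes reads are approximate, from the longest GENCODE M21 transcript. Intervals at 95% came from scipy 1.17.1 in Python 3.11.15.

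The genes, lists and rules were chosen with earlier results of these data known. Genes named in the text are the 6 genes, Srsf1, all measured myotubularins and partners, up to 4 genes per list by size of log2 ratio, list genes behind counts of 5 or fewer, and the 2 nearest genes (a few of these are not reported here); Dnm1, Dnm3, Fig4, Pikfyve, Pik3c3, Pik3r4, Pacsin3, Trio, Mylk, Ttn, Hacd1, Ccdc78, Tcap, Cavin4, Mlip, Cacna1s, Cacnb1, Cacna2d1, Stac3, Atp2a1, Casq1, Myom1, Tmed1 and A830052D11Rik were added for their roles or position after their values were seen.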

Additional observations from a re-analysis of the deposited data

How the results depend on the processing

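With a pseudocount of 0.1, and with the columns scaled to a common sum of 1000000 without mitochondrial and rRNA rows, all log2 ratios of the 6 genes stayed within their counting intervals, but Mtmr2 passed 1.5-fold (0.68 and 0.65), so that 4 genes were higher instead of 3. A pseudocount of 5 moved Mtm1 to 0.40, Mtmr2 to 0.32 and Dnm2 to 0.73, and left 1 gene at least 1.5-fold higher. With the median of genes at 5 FPKM or more set to 0 the log2 ratios were 0.42 for Mtm1, 0.24 for Mtmr2, -0.18 for Mtmr14, 0.27 for Bin1, 0.56 for Dnm2 and -0.64 for Speg, with 0 genes higher and 1 lower. With the median of all measured genes set to 0, chosen after seeing the data, they were 0.54 for Mtm1, 0.36 for Mtmr2, 0.38 for Bin1, 0.68 for Dnm2 and -0.52 for Speg, with 1 higher and 0 lower. Scaling both whole columns to a common sum gave 0.34 for Mtmr2, -0.12 for Mtmr14, 0.27 for Bin1, 0.60 for Dnm2 and -0.63 for Speg, with 1 higher and 1 lower. At 2-fold, 0 genes were higher. Over all 110 measured genes of the lists, 23 passed 1.5-fold upward and 15 downward (median log2 ratio 0.05). Among all measured genes 23.7% passed upward and 8.13% downward. With the median of genes at 5 FPKM or more set to 0, the list counts became 11 and 27 and the median -0.27. The shares of all measured genes then were 11.4% and 18.1%. For single lists, 67 of the alternative values stayed near the main one and 29 moved, 18 of these with the median set to 0. No paired analysis was possible because each group holds 1 library, and for the same reason no replicate could be left out. Depth limits Mtmr14, Mtm1 and Mtmr2, which rest on between 210 and 578 reads.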
